A study of Rattus norvegicus with 9 samples.

Results

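The genes described here encode plasma membrane and lysosomal carriers of amino acids, amino acid transmitters, monoamines and small solutes such as creatine and taurine. They are the genes whose symbols begin with Slc1a, Slc3a, Slc6a, Slc7a, Slc36a, Slc38a or Slc43a, without Slc7a11 and Slc6a17. For each gene the brightest probe set on average was used, among those annotated to exactly 1 gene. The rule took 51 of 14213 genes: 6 Slc1a, 2 Slc3a, 15 Slc6a, 14 Slc7a, 3 Slc36a, 9 Slc38a and 2 Slc43a genes. It used symbols and mean signal, and no difference between groups. Slc7a6os entered by its symbol although it encodes no carrier; it is a neighbour of Slc7a6. A further 13 protein-coding genes with these stems in the RefSeq table were not analysed here.

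The cells were primary Schwann cells, the glia that wrap peripheral axons, from rat sciatic nerve. In the Control RNAi group they were transiently transfected with scrambled oligonucleotides. In the NF1 RNAi group the oligonucleotides targeted Nf1, the gene of neurofibromin, which switches Ras off. The NF1 RNAi + U0126 group also received U0126, an inhibitor of MEK, the kinase upstream of ERK. RNA was taken 48 hours after transfection from 3 independent replicates per group and hybridised to 9 Affymetrix arrays. The sources used here give no age, sex or strain of the rats. There was no group of control cells with U0126 among the arrays analysed here, and the inhibitor was read out on an NF1 RNAi background alone.

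Amino acid carriers set how much of each amino acid a cell takes up, and with it the supply for protein synthesis and for the kinase complex mTORC1. Some work alone, such as the glutamate carriers of the Slc1 family and the sodium-coupled carriers of the Slc38 and Slc6 families, whereas several Slc7 light subunits reach the membrane only when bound to an Slc3 heavy subunit. Glial cells use such carriers to clear glutamate, glycine and GABA, and in many cell types the amino acid response, run by the transcription factor ATF4, raises a number of these genes when amino acids are short.

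Levels below are log2(intensity + 1) on single arrays, always in the order replicate 1, 2, 3. Differences are log2 fold changes ± the standard error of the limma fit, with n = 3 arrays per group, and a gene passed at an adjusted p under 0.05 (limma, Benjamini-Hochberg over all 14213 genes). Levels of different probe sets cannot be set against each other. Of the 51 genes, 24 reached a log2 level of 6 in at least 3 arrays, as 10159 of all genes did, and 27 did not. Arrays give no read depth, and their number limits the precision.

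Nf1 itself fell by 1.05 ± 0.13 with NF1 RNAi (limma adjusted p = 0.000695) and was at a difference of −0.95 from control with the inhibitor added (adjusted p = 0.000662). Schwann cell markers bore out the label: 9 of the 10 measured of 12, Sox10 and S100b among them, were at log2 6 or more in at least 3 arrays, and the exception was Mag. Their summed intensity ran from 35405 to 44796 over the controls, from 45737 to 47571 over the NF1 RNAi arrays and from 41335 to 42903 where the inhibitor was added. Single markers moved either way. With NF1 RNAi 2 of 10 were higher and Pmp22 was lower, at a mean of 10.86 against 12.83 (30% passed, against 26.3% of all genes). With the inhibitor step 4 were lower (40%, against 13.7% of all genes). For 10 fibroblast markers the summed intensity was 36918 to 38856, 29973 to 30936 and 21338 to 29702, carried by collagen genes. Of the 10 markers 5 reached log2 6 in 3 arrays, namely Col1a1, Col1a2, Col3a1, Thy1 and Mfap5, while Dcn and Lum lay between 3.03 and 4.30. From control to NF1 RNAi the mean of Col3a1 went from 12.33 to 10.27, of Mfap5 from 7.21 to 5.38 and of Thy1 from 6.51 to 6.93. Limma called 2 of the 10 lower with NF1 RNAi and 0 higher (20%, against 26.3% of all genes). The inhibitor step gave 1 lower (10%, against 13.7%), and the inhibitor group against control 4 lower (40%, against 35.5%). None of the 8 endothelial markers measured reached log2 6 in 3 arrays (summed intensity 223 to 258 over all arrays), nor did 7 of 10 macrophage markers. The macrophage sums were 453 to 493, 517 to 538 and 552 to 621, and 4 of the 10 were higher against control with the inhibitor and none lower by limma (40%, against 35.5% of all genes), or 2 without Control RNAi replicate 1, with Cd68 at a mean of 5.85, 6.02 and 6.92. Of 10 neuron markers 4 reached log2 6 in 3 arrays, with sums of 8251 to 12695, 4245 to 4869 and 5885 to 6220. With NF1 RNAi 1 was higher and 4 were lower (50%, against 26.3% of all genes). With the inhibitor step 2 were higher and 1 lower (30%, against 13.7%), and against control with the inhibitor 2 were lower (20%, against 35.5%). Control RNAi replicate 1 stood apart: its log2 levels differed from those of replicates 2 and 3 with an SD of 0.32 and 0.37 over all genes, where replicates 2 and 3 differed with an SD of 0.14, and over the 51 carrier genes it was the same to 2 decimals. The median level of 10 mitosis genes was 9.12, 6.78 and 6.83 in control arrays, 5.50, 5.33 and 5.28 with NF1 RNAi, and 5.42, 4.98 and 5.17 with the inhibitor. The 3′ minus 5′ beta-actin difference, a sign of RNA integrity, was 0.90 in that array against 0.60 to 0.62 in the other controls and 0.78 to 0.87 elsewhere. The part of dividing cells, other cell types and RNA integrity in the results below was not tested.

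With NF1 RNAi 11 of the 51 carrier genes passed against control, 5 higher and 6 lower. Over all genes 26.3% passed, 13% higher and 13.3% lower, against 21.6% of the carriers. That background, which also stands beside the lists further on, holds bright and dim genes. Of the 24 carrier genes at log2 6 or more in 3 arrays 10 passed (41.7%), and of the 27 below it 1 did (3.7%). No background matched for level is given here, so these shares do not compare carriers with other genes of like signal. For the 51 carrier genes the median difference was 0.02, as it was over all genes. When U0126 was added to NF1 RNAi cells, here called the inhibitor step, 7 of 51 passed, 4 higher and 3 lower. This is 13.7%, the same share as over all genes (13.7%, with 6.71% higher and 7.02% lower), and the count was 4 without NF1 RNAi replicate 2 and 4 without NF1 RNAi + U0126 replicate 2. NF1 RNAi + U0126 cells against control gave 16 of 51 (31.4%), 10 higher and 6 lower, with a background of 35.5% (17.9% higher and 17.6% lower). In the inhibitor step 5 of the 24 brighter genes passed (20.8%) and 2 of the 27 dimmer ones (7.41%). Against control with the inhibitor these were 12 (50%) and 4 (14.8%). The median differences were 0.06 and 0.06 in the last 2 comparisons, against 0.02 and 0.04 over all genes. In all, 19 genes passed in at least 1 comparison and 32 in none. Wherever a gene passed, the 2 groups compared did not overlap, which is no separate support because the same 3 arrays per group gave both. Some genes that did not pass, such as Slc38a9 and Slc6a9 with NF1 RNAi, also had groups that did not overlap. The comparisons share arrays, so they are not independent of each other.

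**Figure D1:**
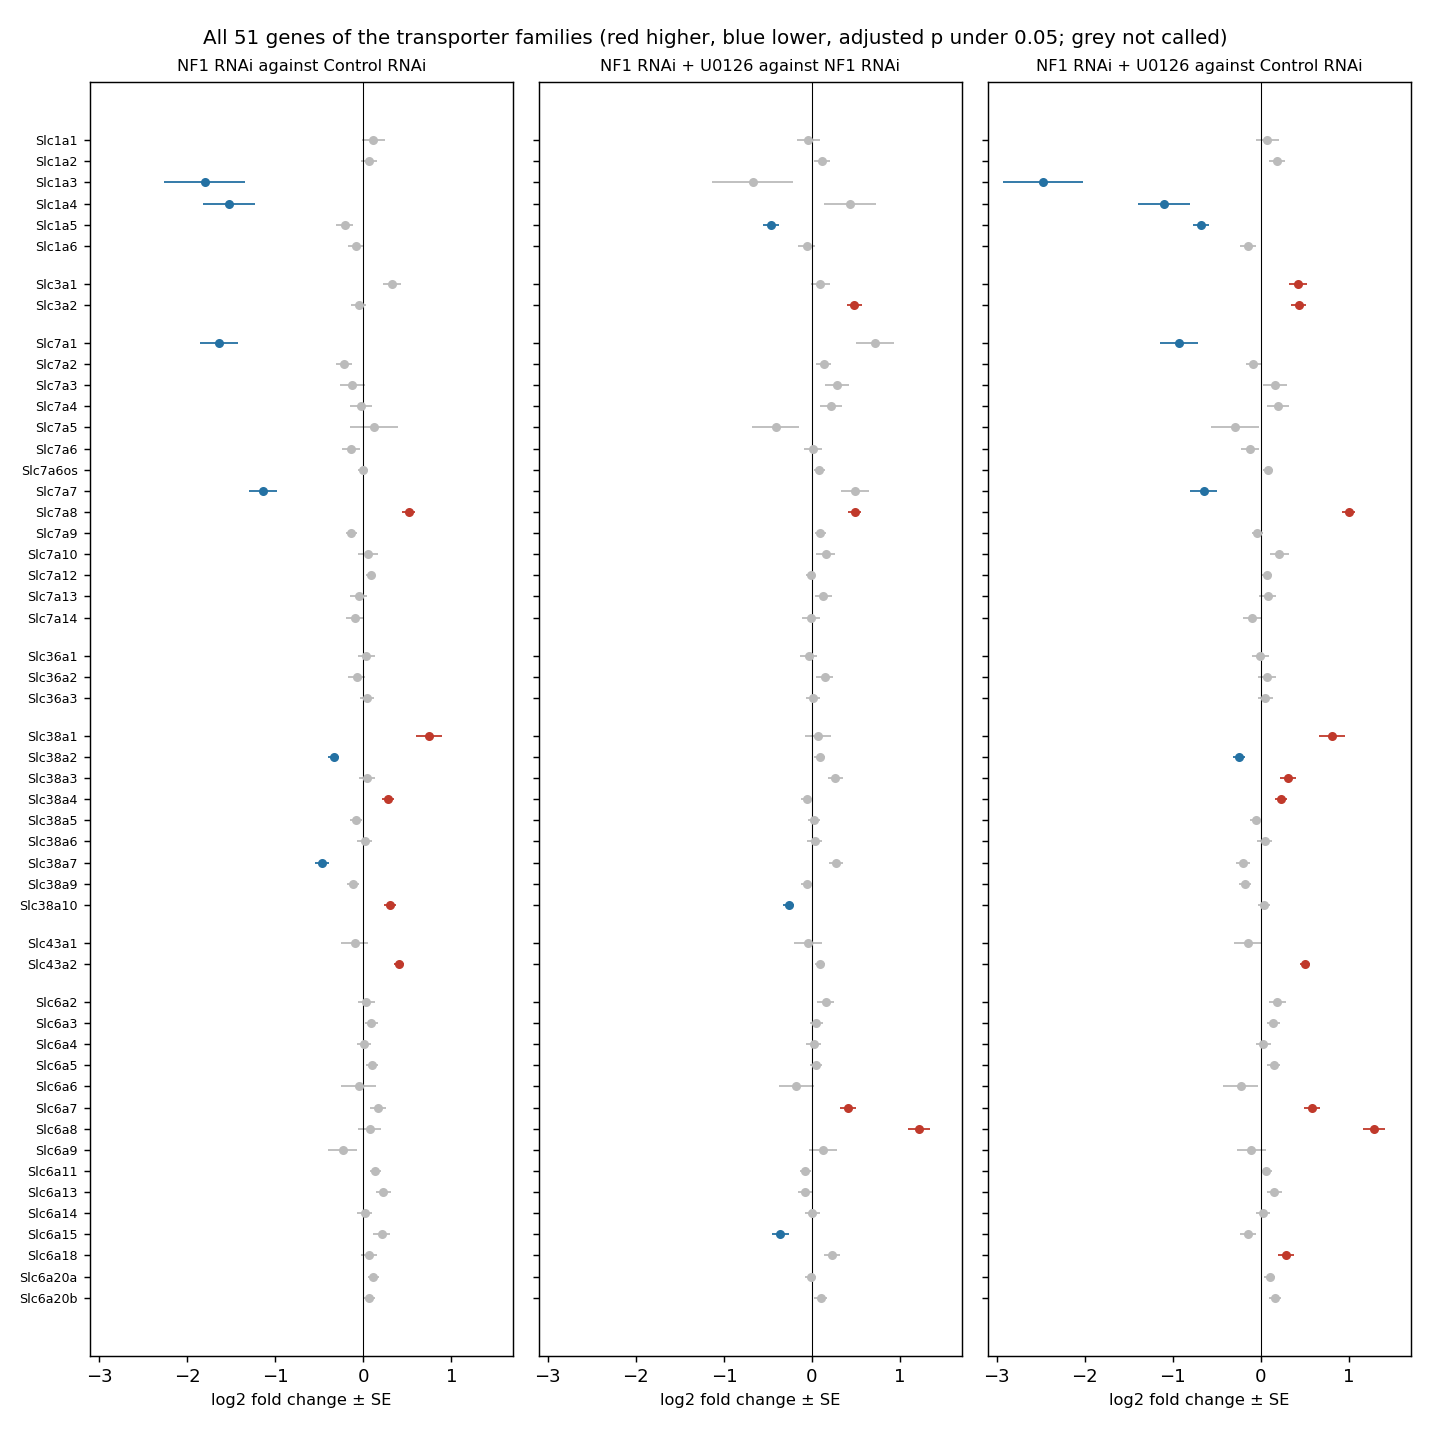
Log2 fold changes (points, horizontal axis) with standard errors (bars) for all 51 genes in the 3 comparisons, grouped by family; red genes were higher and blue genes lower at an adjusted p under 0.05, and grey genes did not pass. The furthest points to the left are Slc1a3, Slc1a4 and Slc7a1, and the furthest to the right is Slc6a8 in the 2 comparisons that involve U0126.

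Among the 51 carrier genes, the falls of a log2 unit or more with NF1 RNAi were in Slc1a3, Slc7a1, Slc1a4 and Slc7a7. In that order they carry glutamate, cationic amino acids, small neutral amino acids, and cationic with neutral amino acids. None of the 51 genes rose as far in that comparison. Their change of more than a log2 unit with the inhibitor step was a rise in Slc6a8, the creatine carrier, which had not passed with NF1 RNAi alone. RNA was taken from whole cultures, so fewer cells that express a gene and less RNA per cell cannot be told apart.

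**Figure D2:**
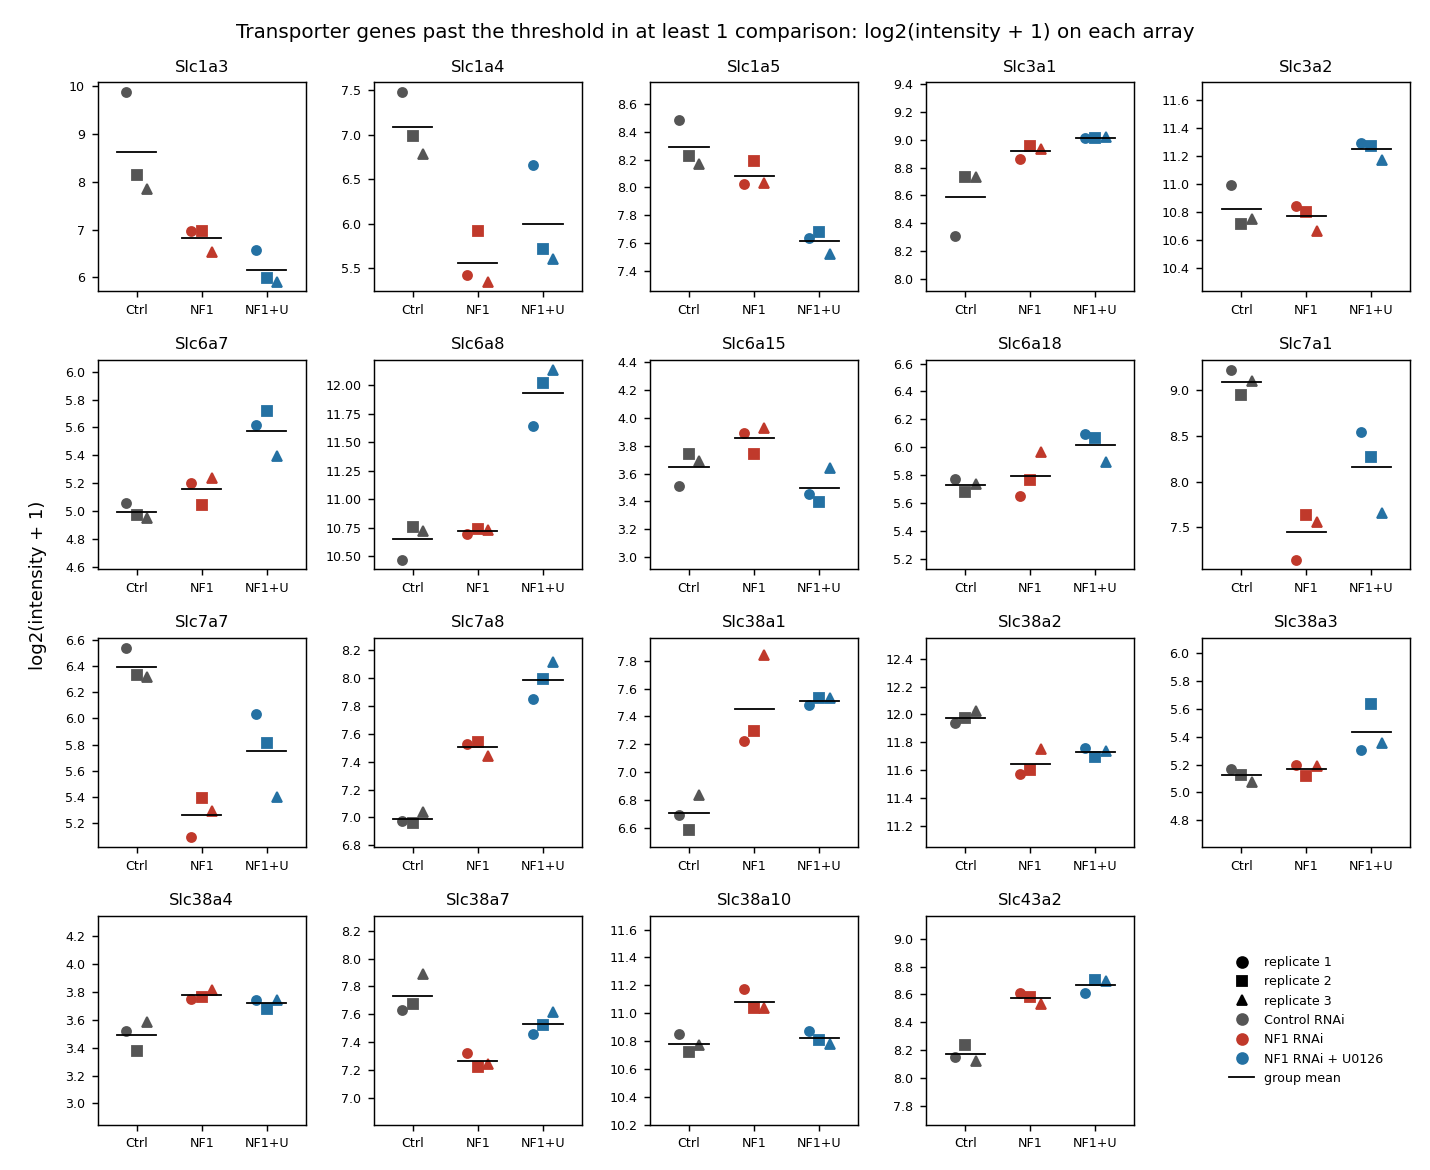
Level of each of the 19 passing genes on every array, log2(intensity + 1), with a vertical scale of its own in each panel; symbols mark the replicate number, colours the group, and lines the group mean. Slc7a8 rises at both steps, Slc38a10 overlaps the control arrays with the inhibitor, and the NF1 RNAi + U0126 arrays of Slc6a8 lie above all others.

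Among the 4 genes of high-affinity glutamate uptake, Slc1a3 changed. It encodes GLAST, a carrier that glia use to clear glutamate. Its level was 9.88, 8.14 and 7.85 in control cells, 6.97, 6.97 and 6.53 with NF1 RNAi, and 6.56, 5.98 and 5.91 with NF1 RNAi + U0126. Every array with NF1 oligonucleotides lay below every control array, and Control RNAi replicate 1 lay well above the other 2 controls. Slc1a3 fell by 1.80 ± 0.46 with NF1 RNAi (limma adjusted p = 0.019), which is 3.48-fold. Without Control RNAi replicate 1 the difference was −1.17 (adjusted p = 0.00465), and without NF1 RNAi replicate 3 the gene no longer passed (−1.66, adjusted p = 0.0669). Against control it fell by 2.47 ± 0.46 when the inhibitor was present (adjusted p = 0.00286), or a difference of −1.84 without Control RNAi replicate 1. Between the 2 NF1 RNAi groups the difference was −0.67 ± 0.46 and did not pass (adjusted p = 0.402), although without Control RNAi replicate 1 it did (adjusted p = 0.0429). The same control array was also the highest for the mitosis genes above, of which 8 of 10 fell with NF1 RNAi and 9 of 10 against control with the inhibitor (13.3% and 17.6% of all genes were lower).

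A second Slc1a3 probe set gave differences of −1.21 ± 0.31 with NF1 RNAi (limma adjusted p = 0.0214 over all probe sets) and −1.42 ± 0.31 with the inhibitor against control (adjusted p = 0.00723). The third, with a mean level of 3.97, passed in neither, and the mean over the 3 probe sets gave −1.05 and −1.38. The other glutamate carriers did not pass in the 3 comparisons; with the replicate number as a block Slc1a2 passed against control with the inhibitor (adjusted p = 0.0472). The largest of their differences was 0.11 for Slc1a1, the neuronal and epithelial carrier EAAC1, 0.18 for Slc1a2, the astrocyte carrier GLT-1, and 0.14 in size for Slc1a6. With NF1 RNAi the 95% interval of the difference ran from −0.14 to 0.27 for Slc1a2 and from −0.18 to 0.41 for Slc1a1.

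Slc7a1 encodes CAT1, the main carrier of arginine and lysine in many cells. Its level was 9.22, 8.95 and 9.10 in control cells, 7.15, 7.64 and 7.56 with NF1 RNAi, and 8.54, 8.27 and 7.66 with the inhibitor. The 3 groups did not overlap, with the inhibitor arrays between the others. Slc7a1 fell by 1.64 ± 0.22 with NF1 RNAi (limma adjusted p = 0.000786; 3.12-fold) and remained lower than control by a difference of −0.93 ± 0.22 with U0126 (adjusted p = 0.00878). The step between, 0.71 ± 0.22, missed the threshold (adjusted p = 0.0611) and passed without NF1 RNAi + U0126 replicate 3 (0.96, adjusted p = 0.0104). Its second probe set gave −0.75 ± 0.12 and −0.51 ± 0.12 in the comparisons with control (adjusted p = 0.00265 and 0.0116), and the third, at a mean level of 4.55, did not pass; the mean over probe sets gave −0.81 and −0.51. The other members of this branch, Slc7a2, Slc7a3, Slc7a4 and Slc7a14, did not pass in any comparison, with differences of at most 0.28 in size (Slc7a3).

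Slc1a4 encodes ASCT1, an exchanger of alanine, serine and cysteine, and Slc1a5 encodes ASCT2, which exchanges glutamine with other neutral amino acids. The level of Slc1a4 was 7.48, 6.99 and 6.79 in control cells, 5.42, 5.91 and 5.35 with NF1 RNAi, and 6.66, 5.71 and 5.60 with the inhibitor. Control arrays were the highest, and the 2 NF1 RNAi groups overlapped. Slc1a4 fell by 1.52 ± 0.29 with NF1 RNAi (limma adjusted p = 0.00523; 2.88-fold) and was lower by a difference of −1.09 ± 0.29 with the inhibitor (adjusted p = 0.0178), a call that ended without NF1 RNAi + U0126 replicate 2 or 3 (highest adjusted p = 0.0682). The step between the NF1 RNAi groups was 0.43 ± 0.29 (adjusted p = 0.402).

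Slc1a5 behaved otherwise. It was at 8.48, 8.22 and 8.17 in control cells, 8.02, 8.19 and 8.03 with NF1 RNAi, and 7.64, 7.68 and 7.53 with the inhibitor. The control and NF1 RNAi arrays overlapped, and all 3 inhibitor arrays lay below them. The difference with NF1 RNAi was −0.21 ± 0.09 (limma adjusted p = 0.139). The gene fell by 0.47 ± 0.09 when U0126 was added (adjusted p = 0.0117; 0.0536 without NF1 RNAi replicate 2) and was 0.68 ± 0.09 below control in that group (a difference of −0.68, adjusted p = 0.000584).

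The 250 bases upstream of an annotated start site are shown for 3 genes because they hold the C/EBP-ATF response element, TGATGNAA, through which ATF4 is known to act on amino acid response genes; Slc38a1 is described further on. They were taken from the RefSeq promoter windows of build GRCr8, run 5′ to 3′ on the gene's strand, and have the motifs in capitals. In Slc7a1 (chr12:11664238-11664487, plus strand) the element starts at position −30 from the start site. In Slc1a4 (chr14:98761563-98761812, minus strand) it lies at −235 on the opposite strand, and an E-box (CACGTG) lies at −20. In Slc38a1 (chr7:129681402-129681651, minus strand) it lies at −142.
Slc7a1: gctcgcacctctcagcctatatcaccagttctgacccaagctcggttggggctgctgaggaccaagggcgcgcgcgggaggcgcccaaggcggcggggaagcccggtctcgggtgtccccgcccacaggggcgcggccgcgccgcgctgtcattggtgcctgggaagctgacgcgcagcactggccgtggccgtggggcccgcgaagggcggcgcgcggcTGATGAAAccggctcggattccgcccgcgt
Slc1a4: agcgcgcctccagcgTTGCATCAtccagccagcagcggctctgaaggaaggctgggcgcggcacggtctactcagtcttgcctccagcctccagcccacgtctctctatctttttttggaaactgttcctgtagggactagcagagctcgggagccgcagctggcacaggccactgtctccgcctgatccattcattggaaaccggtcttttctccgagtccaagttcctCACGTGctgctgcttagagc
Slc38a1: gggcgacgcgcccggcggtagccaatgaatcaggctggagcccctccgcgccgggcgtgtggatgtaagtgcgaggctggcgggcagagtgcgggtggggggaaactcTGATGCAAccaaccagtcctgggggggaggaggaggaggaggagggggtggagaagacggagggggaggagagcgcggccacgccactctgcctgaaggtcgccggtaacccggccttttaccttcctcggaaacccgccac
Windows of 300 bases around the start were found for 39 of the 51 genes, and the element was in 3 of them (7.69%), on either strand, against 3.82% of 27457 rat promoters and 2.21% of the 11736 genes of the array with a window. All 3 were among the 15 passing genes with a window, but they did not move alike: Slc7a1 and Slc1a4 fell with NF1 RNAi and Slc38a1 rose. The E-box was in 7 of 39 (17.9%, against 6.65% of rat promoters and 8.91% of array genes), of which Slc1a4 and Slc38a7 passed. The cyclic AMP response element TGACGTCA, which does not overlap these letters, was in Slc38a6 alone (2.56%, against 1.91% and 2.85%). A match describes letters and does not show that a factor binds.

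The heteromeric carriers pair a heavy subunit with 1 of several light subunits. The heavy subunit Slc3a2, known as CD98 or 4F2hc, was at 10.996, 10.72 and 10.75 in control cells, 10.84, 10.80 and 10.67 with NF1 RNAi, and 11.29, 11.28 and 11.17 with the inhibitor. All 3 inhibitor arrays were above the 6 others, which overlapped. It rose by 0.48 ± 0.09 when U0126 was added to NF1 RNAi cells (limma adjusted p = 0.00701) and by 0.43 ± 0.09 against control (adjusted p = 0.00454), and the difference with NF1 RNAi alone was −0.05 ± 0.09 (adjusted p = 0.72).

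The other heavy subunit, Slc3a1 or rBAT, is best known for cystine uptake in kidney. Its level was 8.31, 8.73 and 8.73 in control cells, 8.86, 8.96 and 8.93 with NF1 RNAi, and 9.01, 9.01 and 9.02 with the inhibitor. The groups did not overlap, and Control RNAi replicate 1 was the lowest array. Slc3a1 passed for NF1 RNAi + U0126 against control, at 0.42 ± 0.11 (limma adjusted p = 0.0138), and just missed with NF1 RNAi (0.33 ± 0.11, adjusted p = 0.0528). With the replicate number as a block it passed there too (adjusted p = 0.0322), as it did without any 1 of the control arrays (0.19 to 0.40), the lowest of these values being that without Control RNAi replicate 1. Its usual partner Slc7a9 did not pass in any comparison, with a largest difference of 0.13 in size and all arrays between 3.64 and 3.89.

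Slc7a8 was the only one of the 51 carrier genes that passed in all 3 comparisons. It encodes LAT2, a light subunit that binds Slc3a2 and exchanges large and small neutral amino acids. Its level was 6.97, 6.96 and 7.04 in control cells, 7.53, 7.54 and 7.44 with NF1 RNAi, and 7.85, 8.0 and 8.12 with the inhibitor. The groups were fully separate and in that order. Slc7a8 rose by 0.51 ± 0.07 with NF1 RNAi (limma adjusted p = 0.00128), by a further 0.48 ± 0.07 with U0126 (adjusted p = 0.00336), and by 1.0 ± 0.07 in all (adjusted p = 2.19e-05; 2.0-fold).

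Slc7a7, the y+LAT1 light subunit that exports cationic amino acids in exchange for neutral ones, went the other way. It was at 6.54, 6.33 and 6.31 in control cells, 5.09, 5.39 and 5.29 with NF1 RNAi, and 6.03, 5.81 and 5.40 with the inhibitor. The groups did not overlap, although NF1 RNAi + U0126 replicate 3 lay close to an NF1 RNAi array. Slc7a7 fell by 1.14 ± 0.15 with NF1 RNAi (limma adjusted p = 0.000948; 2.20-fold) and by 0.65 ± 0.15 against control with the inhibitor (adjusted p = 0.0103), and the step between was 0.49 ± 0.15 (adjusted p = 0.07), or 0.66 without NF1 RNAi + U0126 replicate 3 (adjusted p = 0.0135). Its paralogue Slc7a6, or y+LAT2, did not pass, with a difference of −0.14 ± 0.10 with NF1 RNAi (95% interval −0.37 to 0.09), nor did the neighbouring Slc7a6os (0.00).

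Slc7a5 encodes LAT1, the light subunit for leucine and other large neutral amino acids. Its level varied within groups: 8.80, 8.13 and 8.03 in control cells, 8.50, 8.61 and 8.21 with NF1 RNAi, and 8.49, 8.11 and 7.49 with the inhibitor. All groups overlapped. The differences were 0.12 with NF1 RNAi, −0.41 for the inhibitor step and −0.29 against control, each ± 0.27, and none passed (limma adjusted p = 0.799, 0.377 and 0.44). The interval of the first ran from −0.49 to 0.73, so a change of the size seen in Slc7a8 was within it. The light subunits Slc7a10, Slc7a12 and Slc7a13 did not pass either, with differences of 0.21 at most (Slc7a10, which passed against control with the inhibitor once Control RNAi replicate 1 was left out, at 0.31, adjusted p = 0.0381).

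The Slc38 family of sodium-coupled neutral amino acid carriers had members moving in both directions. Of 9 genes, 3 rose and 2 fell with NF1 RNAi, where 26.3% of all genes passed. With the inhibitor step 1 fell (13.7% of all genes passed), and 3 rose and 1 fell against control with the inhibitor (35.5%). Slc38a1, or SNAT1, a glutamine carrier, was at 6.69, 6.59 and 6.84 in control cells, 7.22, 7.29 and 7.84 with NF1 RNAi, and 7.48, 7.53 and 7.53 with the inhibitor. Every NF1 RNAi array was above every control array, and the 2 NF1 RNAi groups overlapped. Slc38a1 rose by 0.75 ± 0.15 with NF1 RNAi (limma adjusted p = 0.00591) and by 0.81 ± 0.15 against control with the inhibitor (adjusted p = 0.00259). Its second probe set gave 0.42 ± 0.11 and 0.45 ± 0.11 (adjusted p = 0.0288 and 0.0156), and the third, at a mean level of 5.30, did not pass; the mean over probe sets gave 0.43 and 0.47.

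Slc38a2, or SNAT2, the carrier that cells raise when amino acids are short, fell slightly. It was at 11.94, 11.97 and 12.02 in control cells, 11.57, 11.60 and 11.75 with NF1 RNAi, and 11.76, 11.70 and 11.74 with the inhibitor. Control arrays were above all others. The difference was −0.34 ± 0.06 with NF1 RNAi (limma adjusted p = 0.00482) and −0.25 ± 0.06 with the inhibitor against control (adjusted p = 0.0149; 0.0526 without NF1 RNAi + U0126 replicate 2).

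Slc38a7 encodes a lysosomal glutamine and asparagine exporter. It was at 7.63, 7.67 and 7.89 in control cells, 7.32, 7.22 and 7.24 with NF1 RNAi, and 7.46, 7.52 and 7.62 with the inhibitor, with no overlap between groups. It fell by 0.47 ± 0.08 with NF1 RNAi (limma adjusted p = 0.00293). The inhibitor step was 0.27 ± 0.08 and the remaining difference from control −0.20 ± 0.08 (adjusted p = 0.0561 and 0.0865), and the former passed with the replicate number as a block (adjusted p = 0.039). It also passed without Control RNAi replicate 1 or 3, and the latter without Control RNAi replicate 1 (adjusted p = 0.0482). Slc38a9, the lysosomal arginine sensor of mTORC1, did not pass, and its largest difference was −0.17 ± 0.07 with the inhibitor against control (adjusted p = 0.0797).

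Slc38a10 was the only one of the 51 carrier genes to pass in opposite directions with NF1 RNAi and with the inhibitor step. Its level was 10.85, 10.72 and 10.77 in control cells, 11.18, 11.04 and 11.04 with NF1 RNAi, and 10.87, 10.81 and 10.78 with the inhibitor. The NF1 RNAi arrays were above both other groups, which overlapped. It rose by 0.30 ± 0.06 with NF1 RNAi (limma adjusted p = 0.00828) and fell by 0.27 ± 0.06 when U0126 was added (adjusted p = 0.026). The second of these calls was lost when NF1 RNAi replicate 1 or 2, or NF1 RNAi + U0126 replicate 2 or 3, was left out (highest adjusted p = 0.0829).

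The remaining Slc38 calls were on dim probe sets. Slc38a4, or SNAT4, was at 3.52, 3.37 and 3.58 in control cells, 3.75, 3.76 and 3.82 with NF1 RNAi, and 3.75, 3.68 and 3.74 with the inhibitor, differences of 0.28 ± 0.07 and 0.23 ± 0.07 from control (limma adjusted p = 0.0125 and 0.0239). Slc38a3, or SNAT3, was at 5.17, 5.12 and 5.08, then 5.20, 5.12 and 5.19, then 5.30, 5.64 and 5.35, and passed against control with the inhibitor at 0.31 ± 0.09 (adjusted p = 0.023), or 0.20 (adjusted p = 0.0449) without NF1 RNAi + U0126 replicate 2. Their control arrays lay below those of the groups that passed. The Slc38a4 call with the inhibitor ended without Control RNAi replicate 2 or NF1 RNAi + U0126 replicate 1 or 3, and the Slc38a3 call without Control RNAi replicate 2 or 3. Slc38a5 and Slc38a6 did not pass, with differences under those of every Slc38 member that did (0.08 and 0.05 at most).

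Slc43a2, or LAT4, releases large neutral amino acids without sodium. It was at 8.15, 8.24 and 8.12 in control cells, 8.61, 8.58 and 8.53 with NF1 RNAi, and 8.61, 8.70 and 8.70 with the inhibitor. All 6 NF1 RNAi arrays lay above the controls. It rose by 0.40 ± 0.06 with NF1 RNAi (limma adjusted p = 0.00121) and by 0.50 ± 0.06 against control with the inhibitor (adjusted p = 0.000218), and the inhibitor step, 0.09 ± 0.06, did not pass (adjusted p = 0.347). A second probe set gave 0.60 ± 0.09 and 0.39 ± 0.09 (limma adjusted p = 0.0023 and 0.0134). There the group with the inhibitor lay below the NF1 RNAi group, the opposite order to the first probe set. Its paralogue Slc43a1, or LAT3, did not pass, with a largest difference of −0.14. The 3 proton-coupled carriers Slc36a1, Slc36a2 and Slc36a3 did not pass in any comparison, with none at an unadjusted p under 0.05 in limma and differences of 0.15 at most (Slc36a2).

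**Figure D3:**
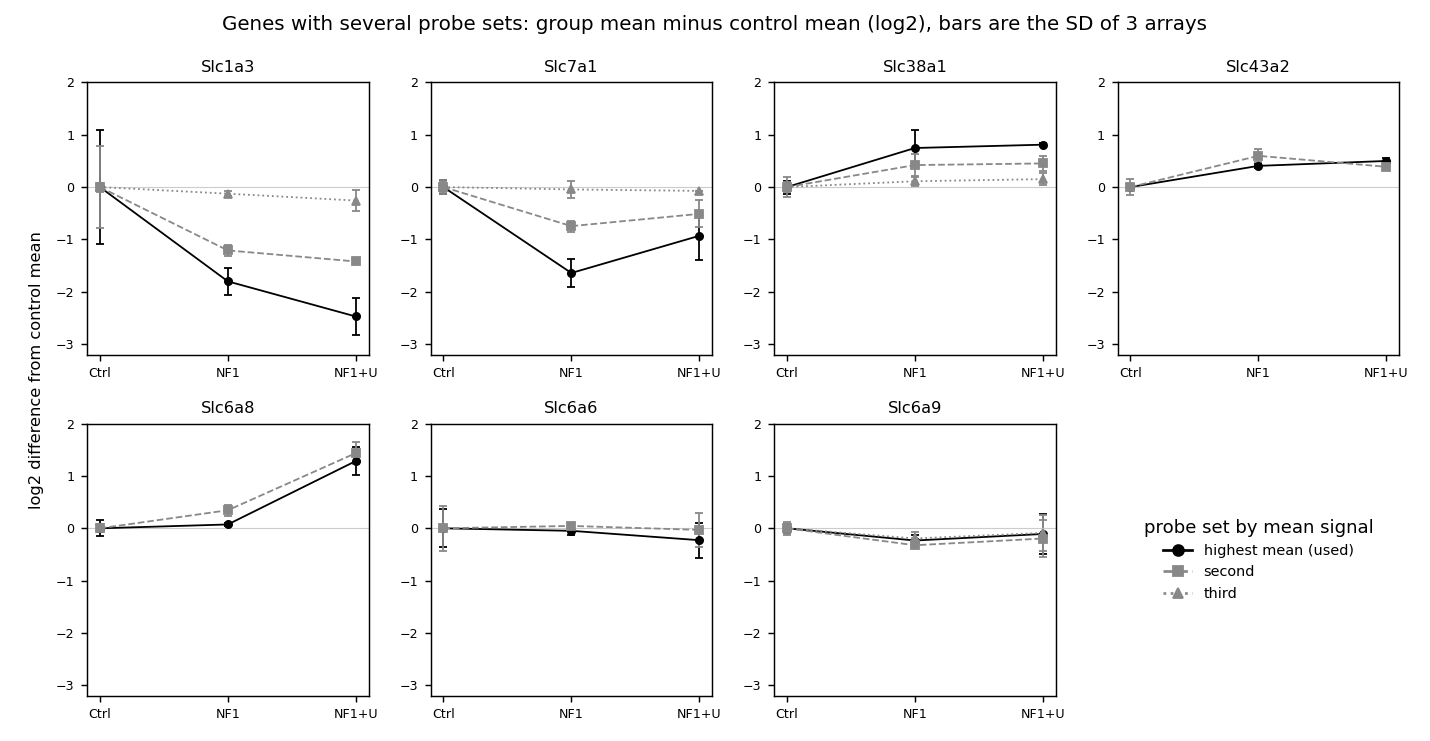
Genes with several probe sets: each group's mean difference from the control mean on the log2 scale, with the SD of 3 arrays as bars; black marks the probe set with the highest mean and grey the others. For Slc1a3 and Slc7a1 the second probe set moves in the same direction by less and the dimmest one stays near 0. For Slc6a8 both probe sets are higher than control with the inhibitor. For Slc43a2 both are above control in both NF1 RNAi groups, but the order of those groups differs between them. The probe sets of Slc6a6 and Slc6a9 stay near 0.

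Slc6a8, or CRT, takes up creatine, which cells use to buffer ATP. Its level was 10.47, 10.76 and 10.72 in control cells, 10.70, 10.74 and 10.73 with NF1 RNAi, and 11.64, 12.02 and 12.14 with the inhibitor. Control and NF1 RNAi arrays overlapped, and every inhibitor array was above them. Slc6a8 rose by 1.21 ± 0.13 when U0126 was added (limma adjusted p = 0.000498; 2.32-fold) and by 1.29 ± 0.13 against control (adjusted p = 9.19e-05; 2.44-fold). With NF1 RNAi alone the difference was 0.07 ± 0.13 (adjusted p = 0.735; 95% interval −0.21 to 0.36). The second probe set gave 1.09 ± 0.11 and 1.44 ± 0.11 (adjusted p = 0.000426 and 2.44e-05), and 0.35 ± 0.11 with NF1 RNAi, which just missed (adjusted p = 0.052).

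Gatm, which encodes the first enzyme of creatine synthesis, moved in the opposite direction with the inhibitor step. Its larger fall was with NF1 RNAi, where Slc6a8 did not pass. Its level was 8.82, 8.71 and 8.26 in control cells, 6.20, 6.75 and 6.19 with NF1 RNAi, and 5.12, 5.16 and 5.14 with the inhibitor. The 3 groups did not overlap. Gatm fell by 2.22 ± 0.18 with NF1 RNAi (limma adjusted p = 7.17e-05) and by a further 1.24 ± 0.18 with U0126 (adjusted p = 0.00223). Gamt, the second enzyme, was at 10.56, 11.25 and 11.28, then 10.61, 10.93 and 10.84, then 10.51, 10.45 and 10.49, and passed against control with the inhibitor at −0.55 ± 0.18 (adjusted p = 0.0401). Control RNAi replicate 1 had the lowest Gamt level of its group, close to the inhibitor arrays.

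**Figure D4:**
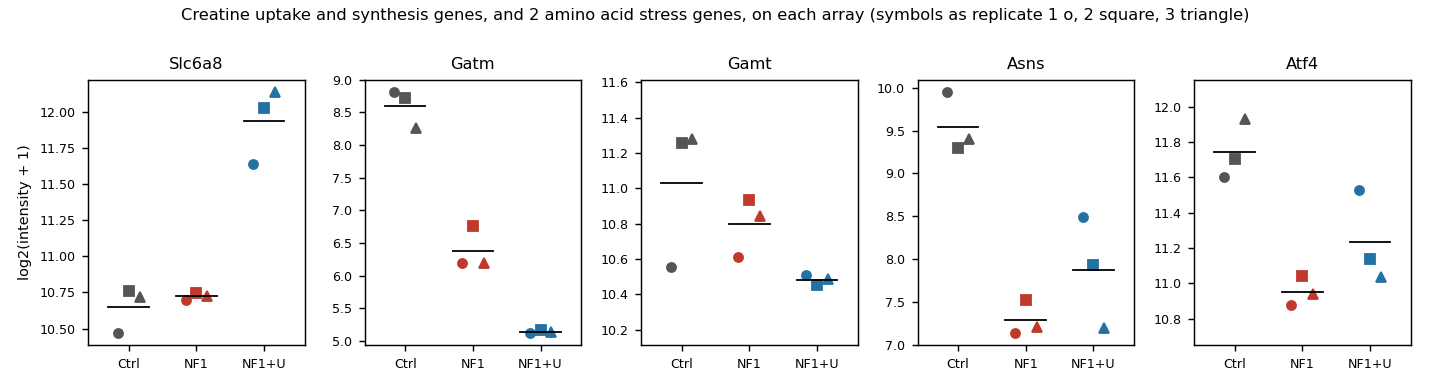
Level on every array, log2(intensity + 1), of the creatine carrier gene Slc6a8, the creatine synthesis genes Gatm and Gamt, and the amino acid response genes Asns and Atf4; colours mark Control RNAi (grey), NF1 RNAi (red) and NF1 RNAi + U0126 (blue), and lines the group means. Slc6a8 is higher with the inhibitor while Gatm is lowest there, and Asns is lower in both NF1 RNAi groups than in control cells.

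Slc6a6, the taurine carrier, did not pass. It was at 11.61, 11.09 and 10.91 in control cells, 11.07, 11.18 and 11.21 with NF1 RNAi, and 10.61, 11.05 and 11.26 with the inhibitor, and all groups overlapped. The difference with NF1 RNAi was −0.05 ± 0.20 (95% interval −0.50 to 0.40), and its second probe set did not pass either.

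Over all genes 26.3% passed with NF1 RNAi, 13.7% with the inhibitor step and 35.5% against control with the inhibitor. None of the 7 genes for reuptake of monoamines, glycine or GABA passed in any comparison by limma, and 1 was at an unadjusted p under 0.05, with NF1 RNAi. They are the noradrenaline, dopamine and serotonin carriers Slc6a2, Slc6a3 and Slc6a4, the glycine carriers Slc6a5 and Slc6a9, and the GABA carriers Slc6a11 and Slc6a13. Only Slc6a9, or GlyT1, and Slc6a3 reached log2 6 in 3 arrays. Slc6a9 ranged from 8.12 to 8.88 over the 9 arrays, and its difference with NF1 RNAi was −0.23 ± 0.16 (95% interval −0.60 to 0.14; adjusted p = 0.354), with its other 2 probe sets at −0.32 and −0.19. The largest difference in the other 6 was 0.23, for Slc6a13 with NF1 RNAi, and it passed without Control RNAi replicate 1 or NF1 RNAi replicate 1 (adjusted p = 0.0382 and 0.0428).

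The 6 other Slc6 amino acid carriers gave 3 passing genes, all small changes on probe sets near or below log2 6. Among them 1 rose and 1 fell with the inhibitor step, where 13.7% of all genes passed. Against control with the inhibitor 2 rose (35.5% of all genes passed), and with NF1 RNAi 0 passed (26.3%). Slc6a7, the brain proline carrier PROT, was at 5.06, 4.97 and 4.95 in control cells, 5.20, 5.04 and 5.24 with NF1 RNAi, and 5.61, 5.72 and 5.39 with the inhibitor, where it was higher than in all other arrays. It rose by 0.41 ± 0.09 with the inhibitor step (limma adjusted p = 0.0175; up to 0.073 without single arrays, namely NF1 RNAi replicate 2 and NF1 RNAi + U0126 replicates 1 and 2) and by 0.58 ± 0.09 against control (adjusted p = 0.00114). Slc6a15, a carrier of branched-chain amino acids and proline, was at 3.51, 3.74 and 3.69, then 3.90, 3.74 and 3.93, then 3.45, 3.40 and 3.64, and fell by 0.36 ± 0.09 with the inhibitor step (adjusted p = 0.0326).

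Slc6a18, related to the kidney carriers of neutral amino acids, was at 5.77, 5.68 and 5.73 in control cells, 5.65, 5.76 and 5.97 with NF1 RNAi, and 6.10, 6.07 and 5.89 with the inhibitor. The inhibitor arrays were above the control arrays and overlapped the NF1 RNAi arrays. It passed against control with the inhibitor at 0.29 ± 0.09 (limma adjusted p = 0.035), but not with the replicate number as a block (adjusted p = 0.0505) and not when Control RNAi replicate 2 or 3, NF1 RNAi replicate 2, or NF1 RNAi + U0126 replicate 1 or 2 was left out. The Slc6a15 call likewise ended without NF1 RNAi replicate 1 or 3 or NF1 RNAi + U0126 replicate 1 or 2 (highest adjusted p = 0.115). Slc6a14, Slc6a20a and Slc6a20b did not pass, with differences of 0.02, 0.12 and 0.16 at most; the last 2 are close paralogues whose probe sets may share signal.

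Genes of amino acid synthesis and the amino acid response, a list of 28 of which 27 were measured, were mostly lower in NF1 RNAi cells. With NF1 RNAi 15 fell and 2 rose (63% of the list, against 26.3% of all genes), with a median of −0.35, and 15 fell and 3 rose against control with the inhibitor (66.7%, against 35.5%; median −0.36). The falls included those of Asns, or asparagine synthetase (−2.26 ± 0.30, limma adjusted p = 0.000862), the stress-induced gene Nupr1 (−2.25 ± 0.26) and Eif4ebp1, a repressor of translation (−1.92 ± 0.09), and the rises Stc2 (1.38 ± 0.33). No member passed for the inhibitor step, with 5 at an unadjusted p under 0.05. At an adjusted p under 0.05 the count for this step rose from 0 to 2 with the replicate block, 2 without Control RNAi replicate 1 and 5 without all replicate 1 arrays. Asns was at 9.95, 9.29 and 9.40 in control cells, 7.14, 7.53 and 7.20 with NF1 RNAi, and 8.49, 7.93 and 7.19 with the inhibitor, so the control arrays were above all others while the NF1 RNAi groups overlapped.

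Of 31 measured genes of amino acid sensing upstream of mTORC1, 4 rose and 6 fell with NF1 RNAi (32.3%, against 26.3% of all genes), 11 rose and 3 fell with the inhibitor step (45.2%, against 13.7%), and 11 rose and 8 fell against control with the inhibitor (61.3%, against 35.5%). Apart from Rragd these genes lay above log2 6 on every array, whereas the shares over all genes include dim ones. The list and its background are therefore not matched for signal. Flcn, which encodes folliculin, was at 8.92, 8.92 and 9.19 in control cells, 9.78 in all 3 NF1 RNAi arrays and 10.17, 10.21 and 10.37 with the inhibitor. It rose by 0.77 ± 0.09 and then by 0.47 ± 0.09 (limma adjusted p = 0.00035 and 0.00793). With the inhibitor step its partner Fnip1 rose by 0.60 ± 0.10, the Rag GTPase gene Rragd by 0.86 ± 0.14, and the arginine sensor gene Castor1 by 0.49 ± 0.08 after a fall of 0.40 ± 0.08 with NF1 RNAi. Seh1l and Sec13, subunits of GATOR2, fell with NF1 RNAi (−0.81 ± 0.20 and −0.42 ± 0.11).

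Among 23 measured enzymes of transmitter, glutamine, glycine, taurine and creatine metabolism, 3 rose and 2 fell with NF1 RNAi (21.7%, against 26.3% of all genes), 1 rose and 1 fell with the inhibitor step (8.70%, against 13.7%), and 6 rose and 5 fell against control with the inhibitor (47.8%, against 35.5%). Beside Gatm, Aass, the first enzyme of lysine breakdown, rose by 3.25 ± 0.41 with NF1 RNAi (limma adjusted p = 0.000632). Its level was 4.27, 5.88 and 6.14 in control cells, 8.84, 8.64 and 8.57 with NF1 RNAi, and 9.33, 8.86 and 8.93 with the inhibitor. Control RNAi replicate 1 was well below the other controls, which makes this difference larger. The GABA-degrading enzyme gene Aldh5a1 rose by 0.52 ± 0.12, and the branched-chain aminotransferase gene Bcat2 fell by 0.49 ± 0.07. The count for the inhibitor step was 4 with the replicate block, 7 without Control RNAi replicate 1 and 5 without all replicate 1 arrays.

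Of 23 measured vesicular, mitochondrial, peptide and lysosomal carriers outside the 7 families, 1 rose and 2 fell with NF1 RNAi (13.0%, against 26.3% of all genes), 4 rose and 1 fell with the inhibitor step (21.7%, against 13.7%), and 4 rose and 2 fell against control with the inhibitor (26.1%, against 35.5%). Slc18a2, the vesicular monoamine carrier VMAT2, was at 11.88, 12.15 and 12.04 in control cells, 13.33, 13.25 and 13.27 with NF1 RNAi, and 12.28, 11.82 and 11.98 with the inhibitor. The NF1 RNAi arrays stood above both other groups, which overlapped. It rose by 1.26 ± 0.11 with NF1 RNAi and fell by 1.26 ± 0.11 when the inhibitor was added (limma adjusted p = 0.000134 and 0.000279). The plasma membrane monoamine carriers Slc6a2, Slc6a3 and Slc6a4 did not pass in those comparisons, as given above. The lysosomal cationic amino acid exporter gene Slc66a1 rose by 0.44 ± 0.07 with the inhibitor step, and the mitochondrial ornithine carrier gene Slc25a15 fell by 0.51 ± 0.14 with NF1 RNAi and rose by 0.62 ± 0.14 with the inhibitor step.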

How the data were processed

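Total RNA of 9 rat Schwann cell cultures was measured on Affymetrix arrays. The deposited table holds 1 linear intensity per probe set and array, made by the authors with RMA (background correction, quantile normalization and probe summary), per the submitters' processing notes. The sources used here name neither the software nor the probe set definition. Of the probe sets, 39.9% held exactly equal values on 2 or more arrays, the Slc1a3 and Flcn values above among them. Quantile normalization makes arrays alike, with medians from 94.6 to 96.7.

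Intensities were turned into log2(value + 1), which understates changes of dim probe sets. Of 31042 probe sets without manufacturer's controls, 20826 were annotated to 1 gene, 436 to several and 9780 to none listed. Symbols were updated through RefSeq GRCr8, by gene ID for 20758 probe sets, giving 14213 genes. The 51 genes had 66 probe sets.

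The comparisons used limma 3.58.1 under R 4.3.3 (group means over all 9 arrays, eBayes, Benjamini-Hochberg over all genes, no low-value filter). The code was run on simulated data with independent noise on each array. That run does not cover effects shared by same-numbered arrays or an array that stands apart. Genes named with values were Nf1, every passing carrier gene, paralogues and partners of these, and up to 4 passing members of each list with the largest change in each comparison. The carrier genes, lists, motifs and tests were chosen with earlier results of these data known. The replicate number was left out of the fit. Deviations of same-numbered arrays from their group means correlated in all 9 pairs (r from 0.17 to 0.62, against −0.52 to 0.40 for other pairs). Such deviations cancel out within a group, so positive values in same-numbered pairs push the other pairs down, and the ranges are not independent. What such arrays have in common is not stated in the sources used here and was not tested. The fit with the replicate number as a block is given where it changes a call. Alternatives were the block, normalization, filter, pseudocount, probe set choice, variance model, array weights, threshold and arrays left out.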

Additional observations from a re-analysis of the deposited data

How the results depend on the processing

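Of 34 member values that passed, 21 passed in every alternative in which they were tested, 13 were lost in at least 1, 9 of these only when a single array was left out or at an adjusted p under 0.01, and 0 changed direction. A further 20 values passed only in an alternative, 10 of them only with array weights, whose estimate stopped before convergence. For the inhibitor step the count of 7 carrier genes became 12 with array weights, 3 at an adjusted p under 0.01, and 4 to 9 when single arrays were left out. For NF1 RNAi + U0126 against Control RNAi 16 became 9 at an adjusted p under 0.01. With the replicate block the counts were 12, 8 and 16, and the calls that changed are given beside the genes; no other call of a carrier gene did. Other alternatives kept each count within 1.5 times. The filter at log2 6 left Slc38a3, Slc38a4, Slc6a7, Slc6a15 and Slc6a18 untested. With 3 arrays per group, calls on bright and dim probe sets alike ended when single arrays were left out. Among the bright ones these were calls on Slc38a10, Slc1a4, Slc1a5, Slc38a2 and Slc1a3. Of the dim ones, the calls on Slc38a3, Slc6a7 with the inhibitor step, Slc6a15 and Slc6a18, and that on Slc38a4 against control with the inhibitor, each ended without single arrays, and those on Slc38a3 and Slc38a4 against control with the inhibitor also when only the groups compared were fitted.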
